A study of Mus musculus with 4 samples.

Results

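Transcription factors grouped under meningeal fibroblasts, the stromal cells of the membranes around the brain, were followed through 9 genes. The matrices held lesional and parenchymal nuclei, with no separate matrix of meninges. The genes were chosen by name, with earlier results of these data known. They are Foxc1, Foxc2, Foxd1, Zic1, Zic2, Zic4, Tbx18, Erg and Bnc2, and each matched 1 of the 33696 gene features of the count matrices. All 9 genes had UMIs (unique molecular identifiers, each counting 1 captured transcript) in the nuclei kept, from 851 for Foxc2 to 135177 for Bnc2. Their gene identifiers in the files are ENSMUSG00000050295 (Foxc1), ENSMUSG00000046714 (Foxc2), ENSMUSG00000078302 (Foxd1), ENSMUSG00000032368 (Zic1), ENSMUSG00000061524 (Zic2), ENSMUSG00000036972 (Zic4), ENSMUSG00000032419 (Tbx18), ENSMUSG00000040732 (Erg) and ENSMUSG00000028487 (Bnc2).

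The nuclei came from mouse brain 21 days after a photothrombotic (PT) injury, a focal cortical lesion made by light activation of a dye in the blood. Mice labelled control (genotype label WT) were set against mice labelled Cxcl12-cKO (genotype label Col1a2(creER); Cxcl12(flox)), and the comparison asks how loss of the chemokine Cxcl12 from fibroblasts bears on the lesion. Tissue of 1 male and 1 female mouse was pooled in each of the 2 libraries, with 75% lesional and 25% parenchymal nuclei set by the authors, so there was 1 library per genotype and no replicate. Both genotypes received the PT injury and, per the methods, tamoxifen, which activates the Cre recombinase that the Col1a2 promoter drives in fibroblasts. In these strains Cre-negative or flox-heterozygous littermates could serve as controls, and which of them were used here was not given in the sources used here. Since the labels give 1 library per genotype, genotype was not tested. Intervals below are 95% intervals that cover counting error only, and no p-value is given.

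Forkhead proteins such as Foxc1, Foxc2 and Foxd1 bind DNA through a winged-helix domain, and Foxc1 is needed in the embryo for normal meninges and skull. Zic proteins are zinc-finger factors known from cerebellar, forebrain midline and meningeal development, Tbx18 is a T-box factor known from mural cells and the epicardium, and Bnc2 (basonuclin 2) is a zinc-finger protein of mesenchymal cells. Erg is an ETS-family factor best known for keeping endothelial identity, so it stands apart from the others by its usual tissue.

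RefSeq start sites on GRCm38.p6 gave promoter sequences for 7 of the 9 genes. The 250 bases before the start are printed for Foxc1, Foxd1 and Tbx18, which lay outside any annotated gene and whose genes varied together over clusters (Pearson's r of 0.833 to 0.879 for the pairs). Capitals mark a GC box (GGGCGG, or CCGCCC on the other strand). The windows are chr13:31806396-31806645 on the plus strand for Foxc1, chr13:98353995-98354244 on the plus strand for Foxd1 and chr9:87731261-87731510 on the minus strand for Tbx18.
Foxc1: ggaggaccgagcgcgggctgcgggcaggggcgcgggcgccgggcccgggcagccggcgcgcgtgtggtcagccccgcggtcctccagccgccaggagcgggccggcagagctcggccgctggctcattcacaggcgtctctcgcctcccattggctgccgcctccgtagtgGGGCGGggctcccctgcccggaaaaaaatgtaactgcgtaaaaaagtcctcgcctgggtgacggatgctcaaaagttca
Foxd1: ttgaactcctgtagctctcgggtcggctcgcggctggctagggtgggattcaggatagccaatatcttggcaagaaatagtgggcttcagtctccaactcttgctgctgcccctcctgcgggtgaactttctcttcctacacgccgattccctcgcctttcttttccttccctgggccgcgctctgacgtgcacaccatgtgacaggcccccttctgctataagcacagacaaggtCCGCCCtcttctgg
Tbx18: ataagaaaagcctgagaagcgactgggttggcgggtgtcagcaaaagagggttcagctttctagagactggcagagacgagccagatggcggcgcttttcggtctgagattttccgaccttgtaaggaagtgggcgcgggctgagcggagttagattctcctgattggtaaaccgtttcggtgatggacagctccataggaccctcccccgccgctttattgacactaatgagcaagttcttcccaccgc
GC content was 70.8% for Foxc1, 57.2% for Foxd1 and 54.0% for Tbx18, against a median of 52.4% over 32851 promoters, and the windows held 29, 12 and 15 CpG dinucleotides against a median of 6. A GC box stood in the windows of Foxc1 and Foxd1 and in 32.7% of all promoters. Searched on both strands, the forkhead letters TGTTTAC (in 3.17% of all promoters), the ZIC letters CAGCAGG (8.44%), the T-box letters AGGTGTGA (1.12%) and the ETS letters CCGGAAG (6.91%) were not in these 3 windows.

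Lesional nuclei were shallower than parenchymal ones, with medians of 2962 and 2975 UMIs in the lesions of the control- and Cxcl12-cKO-labelled libraries and 15915 and 16648 in their parenchyma. Of 21743 nuclei kept, 8385 were fibroblast-like, 8284 of them lesional (4174 and 4110 in the control- and Cxcl12-cKO-labelled libraries) and 101 parenchymal (51 and 50). Cxcl12, the targeted gene, was at 106 CPM in lesional fibroblast-like nuclei of the control-labelled library and at 216 CPM in those of the Cxcl12-cKO-labelled library. That order goes against the label, but which exons the flox allele removes was not stated, and 3′ counts outside them would check nothing. The 2 libraries shared 47 barcodes, and UMIs of both sexes occurred in 9.75% to 14.3% of nuclei per matrix.

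Of the 9 factors, 8 had their highest lesional level over both libraries in fibroblast-like nuclei, and Erg had it in endothelial-like nuclei. Among these 8, the order of classes was not settled for Foxc2, as given below. The share of all genes with their highest lesional level in fibroblast-like nuclei is not given here, so 8 of 9 is not set apart from it. Levels are counts per 1000000 UMIs (CPM), from the sums of all nuclei that a class had in a library. Since 3′ counts were not set per transcript length, they are compared between classes within a gene. An order of genes by CPM served only to choose which list genes to name and is not read as a level. Fibroblast-like nuclei had UMIs of the collagen genes Col1a1, Col1a2 and Col3a1, of the proteoglycan genes Dcn and Lum and of Pdgfra in every library, at 682, 1980, 753, 530, 39.9 and 166 CPM in the lesion labelled control. The members took no part in the clustering that made the classes.

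Among the forkhead genes, Foxc1 was at 105 CPM (99.5 to 110.2) in lesional fibroblast-like nuclei of the control-labelled library and at 98.8 CPM (93.8 to 104) in those of the Cxcl12-cKO-labelled library. The next class over both libraries was endothelial-like at 46.6 CPM, 2.13-fold lower (1.41 to 3.58). Foxd1, known from stromal progenitors, was at 234 CPM (226 to 242) and 201 CPM (194 to 208), and its next class was osteoblast-like, 3.08-fold lower (2.5 to 3.91). Foxc2, the close relative of Foxc1 known from lymphatic and vascular development, had the fewest UMIs, 424 and 302, or 29.6 CPM (26.8 to 32.5) and 20.4 CPM (18.2 to 22.8). For Foxc2 the order was not settled. Ependymal-like nuclei stood at 19.6 CPM from 3 UMIs in 31 nuclei, the ratio of 1.09 had an interval of 0.432 to 6.16, and in the Cxcl12-cKO-labelled library the ependymal-like value of 28.1 CPM was above the fibroblast-like one.

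The Zic genes and Tbx18 were likewise highest in fibroblast-like nuclei. Zic1 was at 279 CPM (270.2 to 287.5) in fibroblast-like nuclei of the lesion labelled control and at 237 CPM (229 to 245) in those labelled Cxcl12-cKO, 2.35-fold (1.98 to 2.83) above osteoblast-like nuclei over both. Zic4, the neighbour of Zic1 in the genome, was at 394 CPM (384 to 404) and 374 CPM (364 to 384), 2.5-fold (1.62 to 4.34) above mural-like nuclei. Zic2 was at 109 CPM (104 to 115) and 85.8 CPM (81.1 to 90.6). Its fibroblast-like level exceeded the endothelial-like one by only 1.58-fold (1.09 to 2.46), and in the Cxcl12-cKO-labelled library these neighbours in the order did not differ beyond counting error (1.33-fold, 0.755 to 2.91). Tbx18 was at 281 CPM (272 to 289.5) and 266 CPM (257 to 274), 3.89-fold (2.72 to 6.01) above the next class, T-cell-like nuclei.

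Bnc2 was at 4300 CPM (4266 to 4334) and 3848 CPM (3816 to 3879) and had a UMI in 96.3% and 96.4% of lesional fibroblast-like nuclei. Among excitatory-neuron-like nuclei of the parenchyma, taken as a low reference from the other region, 21.2% had a Bnc2 UMI, at a median depth of 17868 UMIs against 3084. After each nucleus was thinned to 1000 UMIs, the shares were 90.7% in lesional fibroblast-like and 1.72% in parenchymal excitatory-neuron-like nuclei. They were 16.0% in lesional myeloid-like and 24.0% in lesional T-cell-like nuclei, which stood above that reference. Osteoblast-like nuclei, the bone-forming class, were next in the order at 1243 CPM, 3.27-fold lower (3.11 to 3.45). For the other 7 genes highest in fibroblasts, a UMI was seen in 8.12% (Foxc2) to 59.7% (Zic4) of lesional fibroblast-like nuclei and in 0.356% (Foxc2) to 3.23% (Zic1) of the deeper parenchymal excitatory-neuron-like nuclei. In lesional myeloid-like nuclei the shares were 1.14% (Foxc2) to 7.52% (Zic4).

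Erg was at 509.9 CPM (445 to 582) in lesional endothelial-like nuclei, with 219 UMIs in 158 nuclei, and 6.18-fold lower (5.35 to 7.09) in lesional fibroblast-like nuclei. There it stood at 60.3 CPM (56.3 to 64.4) in the control-labelled library and at 104 CPM (99.2 to 109.6) in the Cxcl12-cKO-labelled library. Endothelial-like nuclei of the parenchyma had 369 CPM (207 to 609) from 15 UMIs in 21 nuclei, which did not differ from the lesional value beyond counting error. Endothelial-like and then fibroblast-like nuclei had the highest Erg levels in either library.

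**Figure D1:**
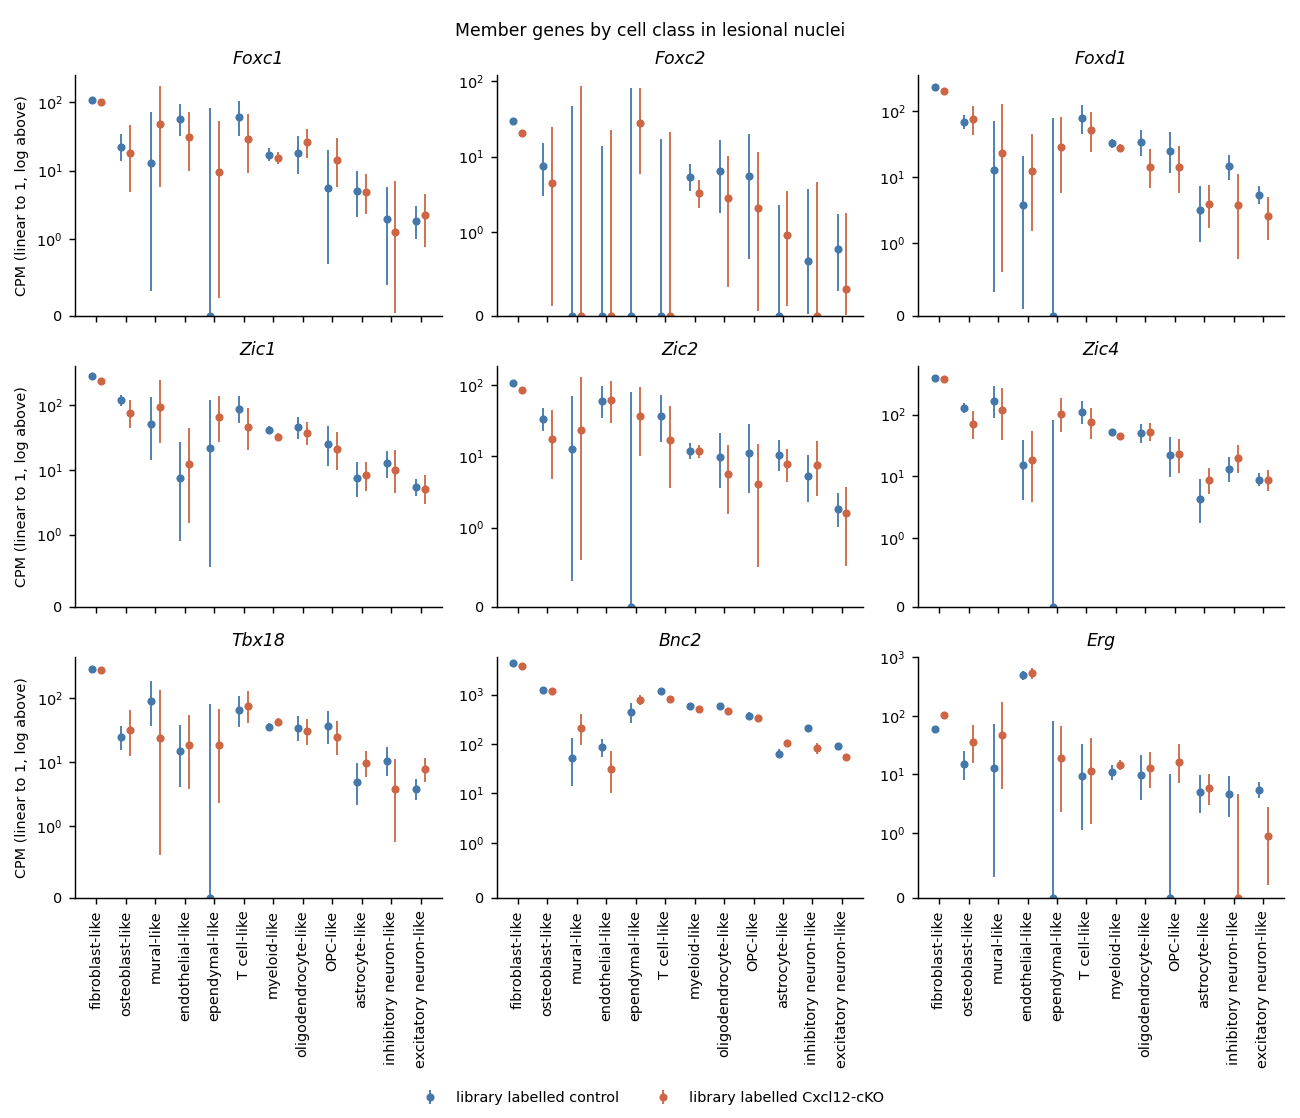
CPM of each of the 9 genes (vertical axis, linear up to 1 and logarithmic above) by cell class of lesional nuclei, for the libraries labelled control (blue) and Cxcl12-cKO (orange); points are CPM and bars 95% Poisson intervals. Fibroblast-like nuclei hold the highest point of 8 panels over both libraries, Erg peaks in endothelial-like nuclei at 509.9 CPM, and the ependymal-like bars are wide because 31 nuclei stand behind them.

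Low levels outside fibroblasts were set against the levels of fibroblast markers in the same classes. In lesional myeloid-like nuclei 6 fibroblast markers summed to 829.6 CPM, against 3966 CPM in lesional fibroblast-like nuclei. At that ratio the members would have had 61.6 (Foxc2) to 10100 (Bnc2) UMIs, and they had 0.586 to 0.795 of these, a narrow band for all 9 genes. Their myeloid-like counts were thus no higher than the fibroblast marker ratio would give. The source of these counts was not tested.

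Against the same marker ratio, a few classes had higher counts of single members. In lesional endothelial-like nuclei Erg had 53.3 times (46.5 to 60.9) the count given by the fibroblast markers, Zic2 5.38 times (3.51 to 7.88) and Foxc1 3.96 times (2.42 to 6.11), while Bnc2 had 0.138 times. Zic2 had 26 UMIs and Foxc1 20 in those 158 nuclei. In the 21 mural-like nuclei of the parenchyma, the class of pericytes and smooth muscle, Zic1 had 17 UMIs, 16.4 times the marker-based count, and Foxd1, Tbx18 and Zic4 had 5, 6 and 7 UMIs at 5.70, 5.45 and 4.52 times. The 58 lesional mural-like nuclei were lower for Zic1 (66.4 against 354.5 CPM), Foxd1 (16.6 against 104 CPM) and Tbx18 (66.4 against 125 CPM). For Zic4 they were alike (149 against 146 CPM), and the intervals were apart for Zic1 alone. Parenchymal inhibitory-neuron-like nuclei had 85 Zic1 UMIs in 868 nuclei, 2.80 times the marker-based count. Osteoblast-like nuclei, which carry collagen mRNA of their own, had 0.0395 (Tbx18) to 0.179 (Zic1) of it.

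Before thinning, single lesional fibroblast-like nuclei usually carried several of the factors. The median lesional fibroblast-like nucleus had a UMI of 4 of the 9 genes in either library, and of 2 after thinning to 1000 UMIs. At least 3 members were seen in 77.6% and 76.3% of these nuclei in the control- and Cxcl12-cKO-labelled libraries, and none in 0.431% and 0.414%. In the same nuclei after thinning, at least 3 were seen in 33.9% and 31.5% and none in 2.31% and 3.34%. Among parenchymal excitatory-neuron-like nuclei 75.5% and 61.2% had none, although they were deeper. After thinning, 97.9% and 96.3% of these and 79.4% and 79.5% of lesional myeloid-like nuclei had none.

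Pairs of members differed in whether they met in the same nucleus. After thinning, Zic4 was seen in 30.4% of lesional fibroblast-like nuclei with a Zic1 UMI and in 29.3% of those without in the control-labelled library, and in 36.6% (33.3 to 40.0) against 28.7% (27.1 to 30.3) in the Cxcl12-cKO-labelled library. Foxc2 was seen in 2.86% of nuclei with Foxc1 and in 2.77% of those without in the control-labelled library, a difference within the intervals. Erg and Zic2 met rarely. Erg was seen in 1.19% (0.389 to 2.76) of nuclei with Zic2 and in 4.94% (4.26 to 5.69) of those without in the control-labelled library, and in 1.86% (0.687 to 4.01) against 7.67% (6.83 to 8.58) in the Cxcl12-cKO-labelled library. All these rates are over the fibroblast states described next. State 0 held 83.7% and 84.1% of Erg UMIs and had the lowest Zic2 level, and meeting within a state was not tested.

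Lesional fibroblast-like nuclei fell into 5 states when clustered again without the members. State 0 (2186 nuclei) was led by Lama3, Matn4 and Eln and came closest to the marker list for late inner lesion fibroblasts, but Matn4 is on the dural list, so the state is called by its genes. State 1 (2669 nuclei) was led by Igfbp3, Ranbp3l and Ptgds and state 3 (865 nuclei) by Dcdc2a, Col4a6 and Col15a1, and both came closest to the leptomeningeal list. State 2 (2508 nuclei) was led by Ccn3, Npr3 and Hs3st1 and matched no list. State 4 (56 nuclei) was dividing, with Top2a and Mki67 among its leading genes. States and levels come from the same nuclei, so levels by state are descriptions, and ranges and highest or lowest states are over states 0 to 3. Markers of other classes also differed between states. In the control- and Cxcl12-cKO-labelled libraries, 7 osteoblast markers summed to 1170 and 719 CPM in state 0 against 342 to 462 CPM in states 1 to 3, and 6 astrocyte markers to 245 and 285 CPM in state 0, 844 and 1180 CPM in state 1 and 1430 and 1300 CPM in state 3, while 6 mural markers summed to 57.3 and 91.9 CPM in state 0, where Erg was highest, against 16.1 to 31.1 CPM in states 1 to 3, with 2 of the 6 at 0 in state 0. The part of these markers in the levels by state was not tested.

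Erg varied most between states. It was at 252 CPM (241 to 263) in state 0 over both libraries, against 9.96 CPM (7.91 to 12.4) in state 1, 14.8 CPM (12.5 to 17.4) in state 2 and 41.8 CPM (34.5 to 50.2) in state 3. State 0 was thus 25.1-fold (20.2 to 32.0) above state 1, by 33.0-fold in the control-labelled library and by 19.9-fold in the Cxcl12-cKO-labelled library. State 0 held 83.7% and 84.1% of all Erg UMIs of lesional fibroblast-like nuclei in the 2 libraries. The dividing state, with 44 Erg UMIs, was at 154 CPM (112 to 207).

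Endothelial markers were lower in state 0 than in states 1 to 3. The 7 endothelial markers, Pecam1, Cldn5 and Cdh5 among them, summed to 58.6 and 54.6 CPM in state 0 of the control- and Cxcl12-cKO-labelled libraries, against 103 to 164 CPM in the other larger states and 9020 CPM in endothelial-like nuclei of both regions, and none of the 7 was at 0 in state 0. In state 0 nuclei without a UMI of any of them, Erg was at 231 CPM (213 to 250) and 266 CPM (250 to 282). After thinning, 18.6% of state 0 nuclei and 0.913% of state 1 nuclei had an Erg UMI, and 0.477% of parenchymal excitatory-neuron-like nuclei did, some of which held several Erg UMIs, so that share is no pure background for Erg.

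Zic2 ran the other way. It was at 36.9 CPM (32.8 to 41.3) in state 0, against 152 CPM (144 to 161) in state 1, 96.6 CPM (90.6 to 103) in state 2 and 121 CPM (109 to 135) in state 3, and state 1 was 4.12-fold (3.63 to 4.70) above state 0. The other Zic genes spread less. Zic4 ranged 1.74-fold (1.65 to 1.83) from state 0 at 269 CPM to state 2 at 469 CPM, and Zic1 ranged 1.48-fold (1.36 to 1.61) from state 0 at 199.8 CPM to state 3 at 295 CPM. Zic1 in states 2 and 3, at 293 and 295 CPM, did not differ beyond counting error.

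Foxd1 and Bnc2 were highest in state 2, led by Ccn3 and Npr3. Foxd1 was at 325 CPM (314 to 336) there and at 126 CPM (113 to 140.3) in state 3, a 2.57-fold range (2.30 to 2.88). Bnc2 was at 5515 CPM (5469 to 5561) in state 2, 3884 in state 1, 3433 in state 0 and 1369 CPM (1326 to 1414) in state 3, a 4.03-fold range (3.90 to 4.16). Tbx18 had the opposite place in state 3, the Col4a6 and Col15a1 state, with 405 CPM (381 to 429), against 225 CPM (214 to 235) in state 0, 297 in state 1 and 258 in state 2.

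Foxc1 was highest in state 1, the Ranbp3l state, at 132 CPM (124.5 to 140.5), and lowest in state 0 at 74.5 CPM (68.6 to 80.7). Foxc2 followed it only in part. It was at 29.0 CPM (25.4 to 33.0) in state 1 and at 31.7 CPM (28.3 to 35.4) in state 2, which did not differ beyond counting error, at 18.4 CPM in state 0 and at 9.17 CPM (5.94 to 13.5) in state 3. In both libraries the highest state was the same for 7 of the 9 genes. The exceptions were Foxc2, highest in state 2 of the control-labelled library and in state 1 of the other, and Zic1, highest in state 3 of the control-labelled library and in state 2 of the other. The states were made from both libraries together. The share of all genes with the same highest state is not given here, so 7 of 9 is not set apart from it.

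**Figure D2:**
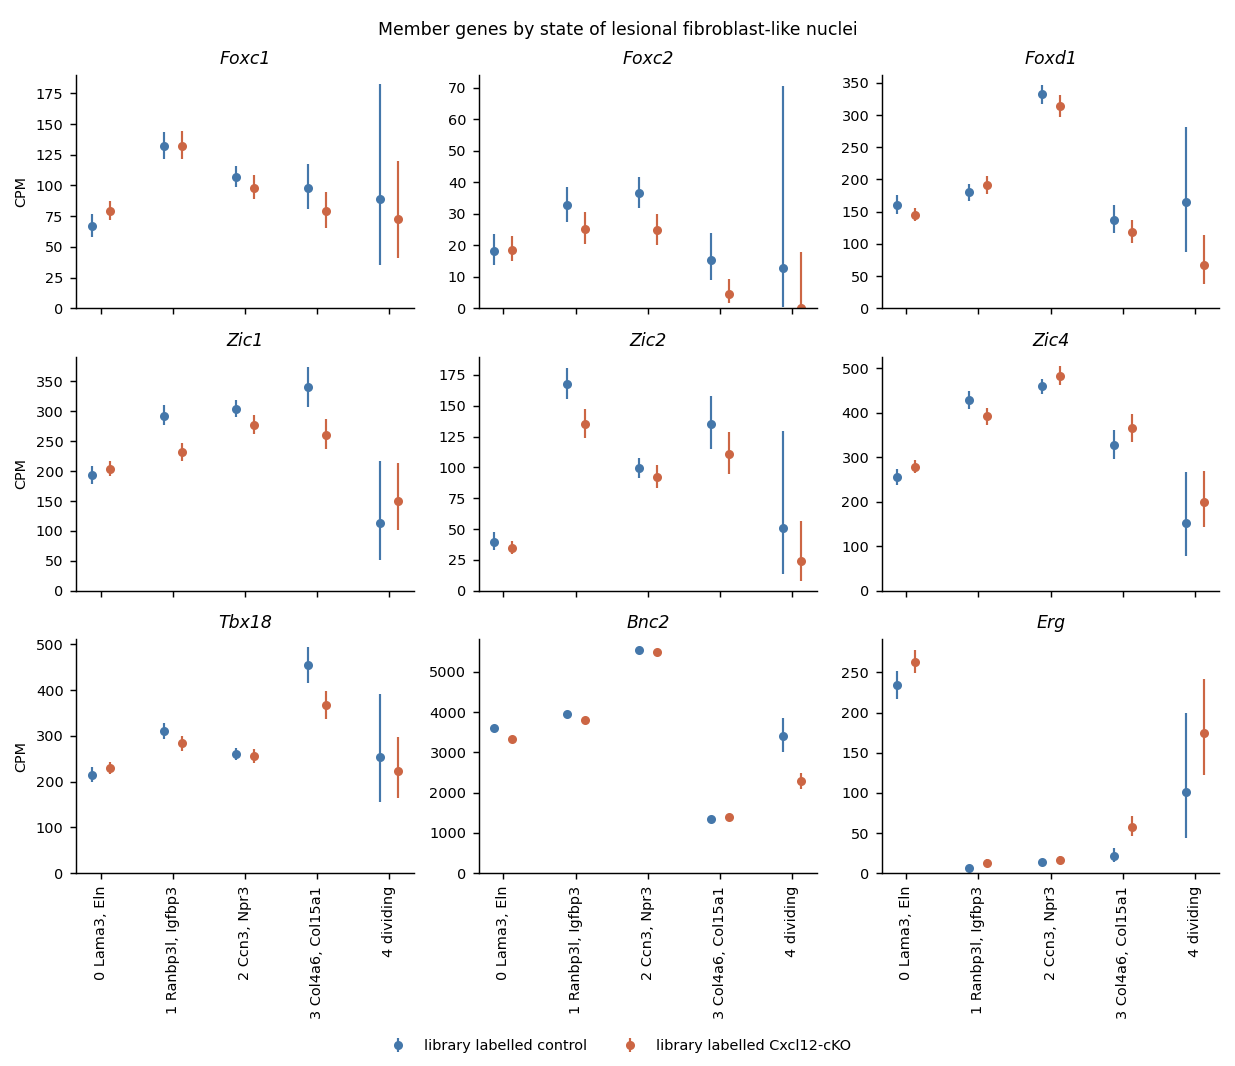
CPM of each gene (vertical axis, from 0) by fibroblast state, named by leading genes, in lesional fibroblast-like nuclei of the libraries labelled control (blue) and Cxcl12-cKO (orange), with 95% Poisson intervals. Erg stands at 234 and 263 CPM in state 0 and at 57.7 CPM or less in states 1 to 3, Zic2 is lower in state 0 than in states 1 to 3, and the dividing state has wide bars from 19 and 37 nuclei.

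Between the libraries, 1 of the 9 factors passed 1.5-fold in lesional fibroblast-like nuclei, and among all genes with at least 50 UMIs 6.02% did so in either direction (866 of 14385 genes). The gene was Erg, at 60.3 CPM from 864 UMIs in the control-labelled library and 104 CPM from 1545 UMIs in the Cxcl12-cKO-labelled library, a log2 ratio of 0.79 (0.67 to 0.91). The 6 mural markers were higher in the same nuclei too, at 27.6 and 46.8 CPM, while the 7 endothelial markers were at 120 and 101 CPM, and their part in the Erg difference was not tested. The other 8 members were lower in the Cxcl12-cKO-labelled library, by less than 1.5-fold. Among all genes with at least 50 UMIs, 7039 of 14385 had a ratio below 0. Foxc2 had a log2 ratio of -0.54 (-0.75 to -0.32), Zic2 -0.35 (-0.46 to -0.24), Zic1 -0.23, Foxd1 -0.22 and Bnc2 -0.16. Foxc1, Tbx18 and Zic4 each had -0.08, and the interval of Foxc1 (-0.19 to 0.02) held 0. The median over the members was -0.16, against 0.00 over all genes. With both libraries given the state shares of the control-labelled library, the members' median was smaller in size, as given below. With 9 genes, a count of 1 past 1.5-fold is not set apart from the 6.02% over all genes.

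The Erg difference was smaller within state 0, which held most of its UMIs. Erg in state 0 was at 234 CPM (217 to 252) in the control-labelled library and at 263 CPM (249 to 277.5) in the Cxcl12-cKO-labelled library, a log2 ratio of 0.17 (0.04 to 0.30). State 0 made up 22.4% (21.1 to 23.6) of lesional fibroblast-like nuclei in the control-labelled library and 30.5% (29.1 to 31.9) in the Cxcl12-cKO-labelled library. With the states of both libraries given the shares of the control-labelled library, the Erg ratio was 0.27 and passed 1.5-fold no longer. Within state 1 the ratio was 0.90 (0.23 to 1.62) on 29 and 52 UMIs, within state 2 it was 0.30 (-0.19 to 0.78), and within state 3 it was 1.43 (0.79 to 2.15) on 25 and 89 UMIs. Within states 0 to 3, 7.43%, 6.08%, 5.28% and 8.04% of all genes passed 1.5-fold.

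Foxc2 was lower in the Cxcl12-cKO-labelled library in 3 of the 4 larger states. Its log2 ratio was -0.37 (-0.76 to 0.01) in state 1, -0.56 (-0.91 to -0.21) in state 2 and -1.69 (-3.25 to -0.42) in state 3, the last on 18 and 7 UMIs, and 0.03 (-0.46 to 0.54) in state 0. Zic2 was lower in all 4, by log2 ratios of -0.11 to -0.31, and the interval of state 1 alone left out 0. Zic1 was at 293 and 231.5 CPM in state 1 and at 339.9 and 261 CPM in state 3, log2 ratios of -0.34 and -0.38, and at 193 and 204 CPM in state 0, a log2 ratio of 0.08. Bnc2 in state 2, its highest, was at 5528 and 5496 CPM, which did not differ beyond counting error.

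**Figure D3:**
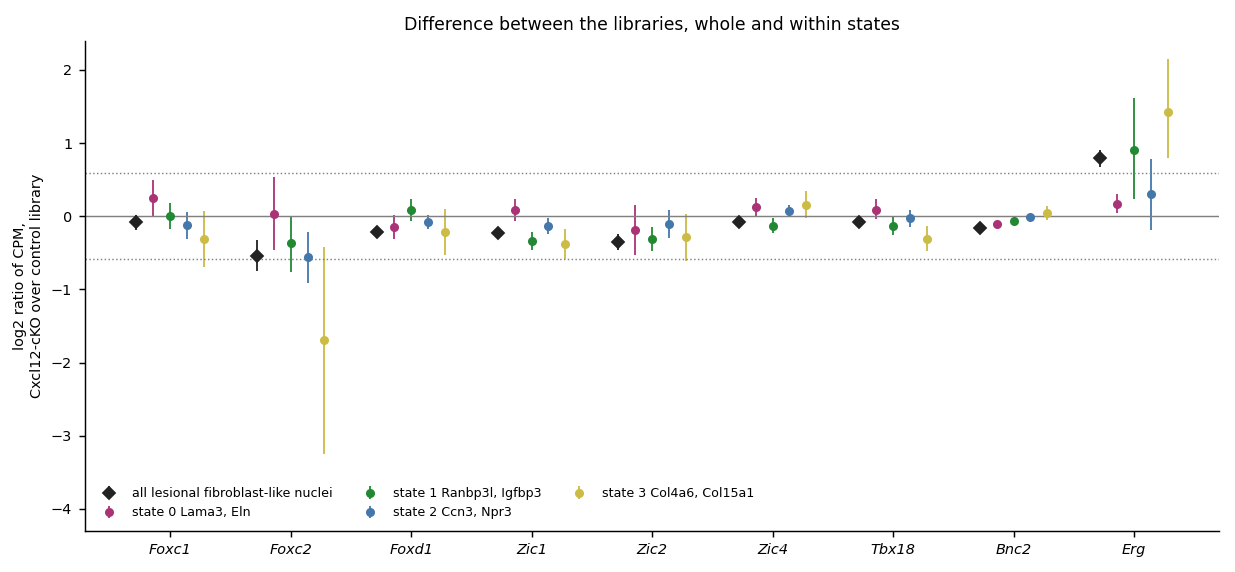
Log2 ratio of CPM, Cxcl12-cKO-labelled library over control-labelled library (vertical axis), for each gene over all lesional fibroblast-like nuclei (black diamonds) and within states 0 to 3 (coloured points), with 95% conditional binomial intervals; dotted lines mark 1.5-fold. The black diamond of Erg, at 0.79, lies above the upper line and its state 0 point, at 0.17, near 0, and the state 3 point of Foxc2 lies at -1.69.

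The male and female mouse of each library were told apart by sex-linked UMIs, which gave 4 mice with 1451 to 1733 lesional fibroblast-like nuclei each. A UMI count of 1 was enough, and UMIs of both sexes occurred in 9.75% and 11.3% of lesional nuclei of the control- and Cxcl12-cKO-labelled libraries. Nuclei with both were left out, but others may have been given to the wrong mouse, and the effect on the values per mouse was not tested. In the order control female, control male, Cxcl12-cKO female, Cxcl12-cKO male, Erg was at 31.6, 86.3, 84.4 and 127 CPM. The groups overlapped, since the control male was above the Cxcl12-cKO female, and each male was above the female of its library. State 0 made up 15.1%, 26.4%, 27.8% and 33.7% of their fibroblast-like nuclei in the same order, the same order of mice as for Erg but for the near-equal middle pair. From female to male, Erg passed 1.5-fold in either library, with log2 ratios of female over male of -1.45 (-1.70 to -1.20) and -0.59 (-0.76 to -0.42), and it was the 1 member of 9 to do so in each, against 6.59% and 6.78% of all genes. Within state 0, Erg was at 168, 271, 230.3 and 302 CPM. Each genotype had 1 mouse of either sex in 1 library, so differences between single mice, and between libraries, cannot be told apart from genotype.

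For 3 factors the mice did not overlap between the genotypes, with lower values under the label Cxcl12-cKO for each. Among all genes tested, the mice did not overlap in either direction for 41.5%, so 3 of 9 is no more than the background. In the order above, Foxc2 was at 32.6, 27.3, 20.6 and 19.8 CPM, and both control mice were above both others. Zic2 was at 116, 102, 83.8 and 83.5 CPM, with the same separation and almost equal values in the mice labelled Cxcl12-cKO. Foxd1 was at 256, 224, 207 and 199 CPM, where the gap between the groups was smaller than that between the control mice. Within states 0 to 3 the Foxd1 log2 ratios between the libraries were -0.15, 0.09, -0.08 and -0.22. Each had an interval that held 0, and the mice overlapped for Foxd1 in each state. With the state shares of the control-labelled library, the Foxd1 ratio was -0.06.

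The other genes overlapped. Zic1 was at 311, 255, 263 and 218 CPM, higher in the female of either library, and Zic4 was at 445, 353, 386 and 359.8 CPM. Tbx18 was at 311, 249, 276 and 259 CPM and Foxc1 at 114, 95.6, 103 and 99.2 CPM, and for each of these 4 genes the control female was the highest. Bnc2 was at 4588, 4159, 3250 and 4262 CPM, with the Cxcl12-cKO female the lowest. That mouse was also the lowest for Bnc2 within state 0 (3923, 3579, 2749 and 3739 CPM), state 1 (3989, 3855, 3458 and 3978 CPM) and state 2 (5505, 5720, 4902 and 5837 CPM), but not within state 3 (1095, 1336, 1195 and 1630 CPM).

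Within states, Foxc2 was lower in both mice labelled Cxcl12-cKO in states 1, 2 and 3, Zic2 likewise, Zic1 in states 1 and 3, and Foxc1 and Tbx18 in state 3. Tbx18 in state 3 was at 529.5, 414, 359 and 341 CPM and Foxc1 at 115, 88.1, 78.9 and 77.4 CPM. Erg was higher in both in states 1 and 3, and Foxc1 in state 0 (74.7, 64.4, 79.2 and 81.6 CPM). In state 3 the mice thus did not overlap for 5 of the 8 members with at least 50 UMIs there, and for Foxc2, which was under that minimum with 2 to 5 UMIs per mouse. Erg in state 3 stood at 19.7, 16.6, 23.1 and 97.9 CPM, so the male labelled Cxcl12-cKO, with 43 UMIs in 128 nuclei, held most of that difference. Among all genes tested, the mice did not overlap for 37.2% in state 0, 38.3% in state 1, 35.6% in state 2 and 34.3% in state 3.

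**Figure D4:**
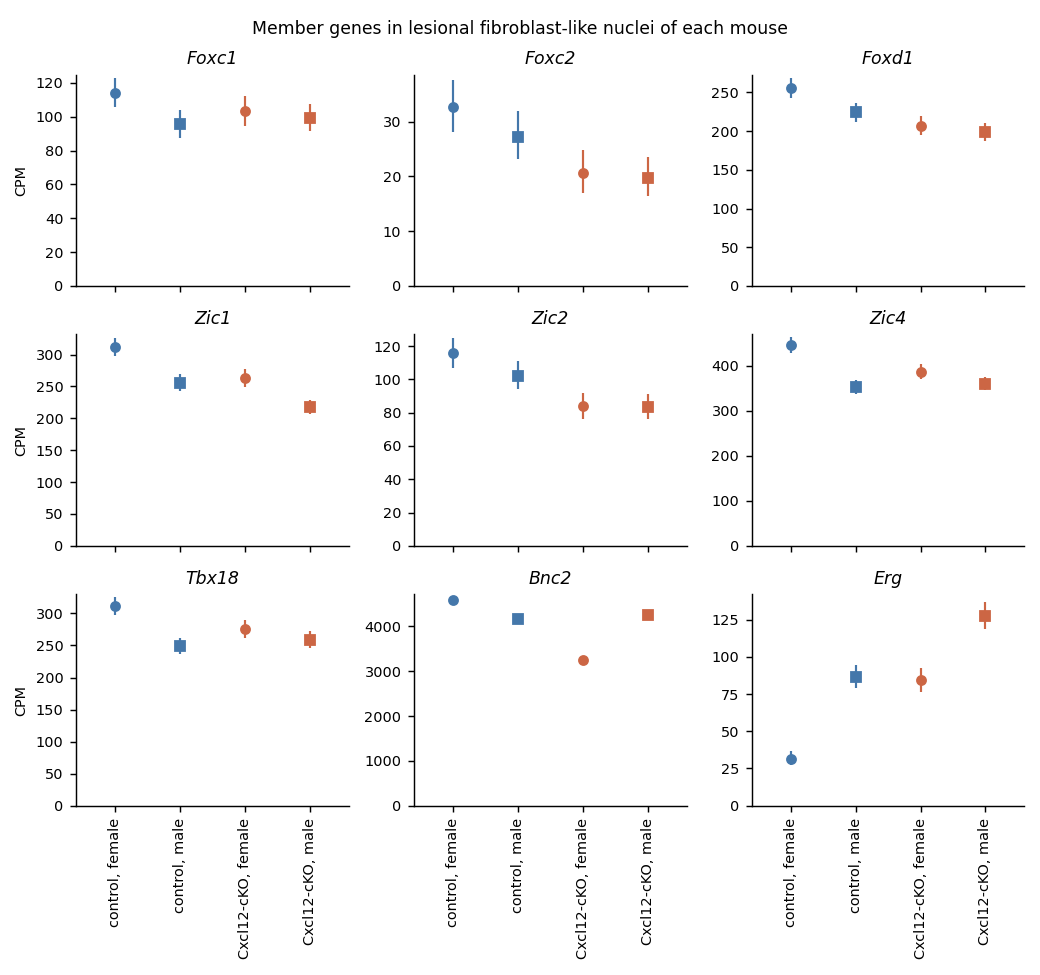
CPM of each gene (vertical axis, from 0) in lesional fibroblast-like nuclei of each of the 4 mice, females as circles and males as squares, control in blue and Cxcl12-cKO in orange, with 95% Poisson intervals. Erg spans 31.6 CPM in the control female to 127 CPM in the Cxcl12-cKO male, with the genotypes overlapping between them, and Bnc2 is lowest in the Cxcl12-cKO female at 3250 CPM.

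Between regions, 2 of the 9 factors passed 1.5-fold in fibroblast-like nuclei, both higher in the lesion, against 49.5% of 14443 genes in either direction. The parenchymal side rests on 101 nuclei, and 6 of the 7 fibroblast markers checked were lower there in both libraries, the exception being Lum, at 13.4 and 32.8 CPM against 39.9 and 32.4 CPM in the lesions. Col1a1 was at 152 and 225 CPM, Col1a2 at 608 and 455, Col3a1 at 139 and 188 and Dcn at 134 and 159 CPM in the control- and Cxcl12-cKO-labelled parenchyma, against 682 and 672, 1980 and 1430, 753 and 831, and 530 and 468 CPM in the lesions. The part of that difference in the members' values was not tested. Erg had 2409 UMIs in the lesion and 0 in those 101 nuclei, where a count of 0 allows up to 6.86 CPM (3 counts over both libraries). It was therefore at least 12-fold higher in the lesion, and at least 4.49-fold and 7.42-fold in the control- and Cxcl12-cKO-labelled libraries taken alone, each against its own limit of 13.4 and 14.1 CPM. Within the lesion, Erg ran from 9.96 CPM in state 1 to 252 CPM in state 0, which held most of its UMIs. Parenchymal nuclei were not given to states, so the part of states in these regional differences was not tested. Tbx18 was at 281 and 266 CPM in the lesions and at 169.8 and 159 CPM in the parenchyma, log2 ratios of 0.71 (0.27 to 1.23) and 0.72 (0.25 to 1.27).

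Foxd1 lay the other way, below 1.5-fold over both libraries. It was at 217 CPM in the lesion and 318 CPM (267 to 375.5) in the parenchyma, a log2 ratio of -0.55 (-0.79 to -0.30), with -0.25 (-0.61 to 0.14) in the control-labelled library and -0.85 (-1.17 to -0.50) in the Cxcl12-cKO-labelled library. Zic1, at 258 and 261 CPM, and Zic4, at 384 and 379.8 CPM, differed by less than counting error, with intervals of the log2 ratio from -0.28 to 0.26 and from -0.21 to 0.24. Zic2 (0.07), Foxc1 (-0.27) and Foxc2 (-0.51) had log2 ratios whose intervals held 0, and Bnc2 was at 4070 CPM in the lesion and 3729 CPM in the parenchyma. Depth differed between regions, with a median of 3084 UMIs per lesional and 4124 per parenchymal fibroblast-like nucleus. After thinning, Tbx18 was seen in 22.4% of lesional and 13.0% of parenchymal nuclei and Erg in 5.87% and 0%.

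**Figure D5:**
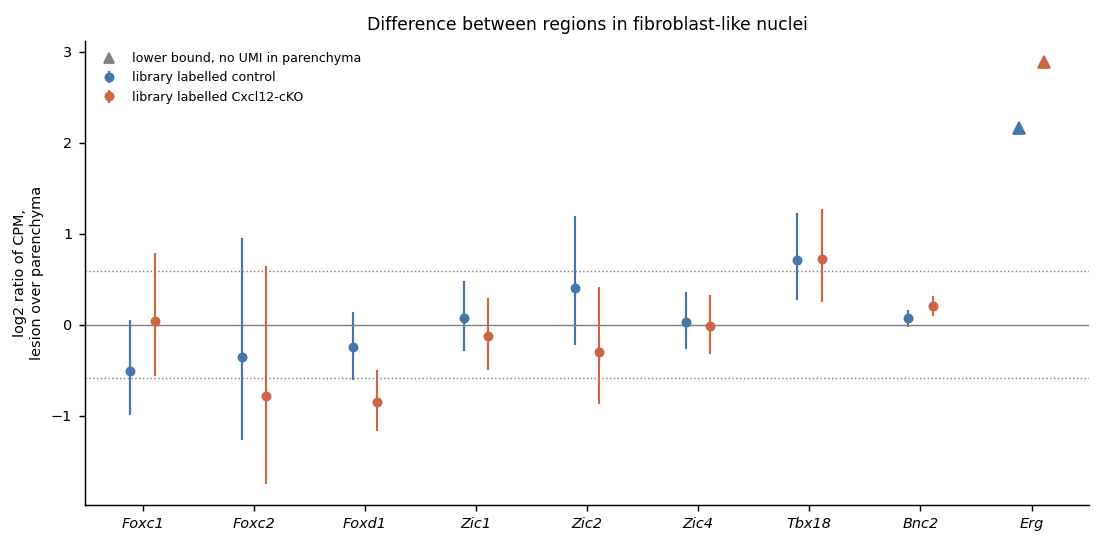
Log2 ratio of CPM, lesion over parenchyma (vertical axis), in fibroblast-like nuclei for each gene in the libraries labelled control (blue) and Cxcl12-cKO (orange), with 95% conditional binomial intervals; triangles are lower bounds for Erg, which had no UMI in the parenchyma, and dotted lines mark 1.5-fold. Tbx18 lies at 0.71 and 0.72, Zic4 near 0, and Foxd1 below 0 in both libraries.

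Related factors were described from lists made for this account. Of 23 relatives of the members, 12 had at least 50 UMIs in lesional fibroblast-like nuclei, 0 were past 1.5-fold upward and 1 downward, and their median log2 ratio was 0.01. Named by their CPM were the forkhead genes Foxp1 (3608 and 3590 CPM in the control- and Cxcl12-cKO-labelled libraries) and Foxp2 (2930 and 2511 CPM) and the T-box gene Tbx15 (953 and 879 CPM). The 1 past the fold was Foxd2, on 67 UMIs, with a log2 ratio of -0.69 (-1.47 to 0.04) whose interval held 0. By state, Foxp2 had its lowest level in state 3, at 325 CPM against 1840 to 3750 CPM in states 0 to 2, the same lowest state as Bnc2 and Foxd1.

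Of 47 other mesenchymal factors, 37 had at least 50 UMIs, 2 were past 1.5-fold upward and 1 downward, with a median of 0.00. Ebf3 was at 7.74 and 23.7 CPM, a log2 ratio of 1.61 (1.30 to 1.94), and by state it stood at 45.4 CPM in state 0 against 1.23, 2.41 and 9.54 CPM in states 1 to 3, the same highest and lowest states as Erg. Tfap2a was at 6.63 and 11.1 CPM (0.75, 0.38 to 1.13), highest in state 3, and Klf4 was at 17.2 and 11.0 CPM (-0.64, -0.94 to -0.35), highest in state 1. Named by their CPM were Eya2 (1344 and 1192 CPM), Eya1 (719 and 607 CPM) and Prrx1 (520.2 and 596 CPM). Of 8 meningeal signal genes, all with at least 50 UMIs, 1 was past the fold, Cxcl12 itself. Also named by their CPM were the basement membrane genes Col4a1 (290.2 and 394 CPM) and Lama1 (165 and 147 CPM), and Lama1 was at 976 CPM in state 3, where Tbx18 was highest.

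Patterns over 52 profiles, 1 for each cluster or state in each library, were compared by Pearson's r of log2(CPM + 1) among 16390 genes with at least 200 UMIs. The profiles share libraries and classes, so r is a description. Foxd1 was most like Zic1 (0.939) and Zic4 (0.929), Tbx18 most like Zic4 (0.929), and Zic1 most like Tbx15 (0.942) and then Foxd1. Zic4 was most like Mrc2 (0.956), a collagen receptor gene, and Bnc2 most like Eya2 (0.984). The non-coding gene Gm29478 was among the 3 nearest of Foxd1, Zic1 and Zic4. Foxc1 was most like Dcn (0.891), Zic2 most like Phldb2 (0.916) and Foxc2 most like Foxl1 (0.816), a further forkhead gene.

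Erg was set apart from the other members in the same profiles. Its nearest gene was Bmpr2 (0.826), a BMP receptor gene of endothelium and stroma, followed by Slfn3 and Il4ra. With the other 8 members its r ran from 0.11 (Foxc2) to 0.475 (Zic2), while pairs among those 8 ran from 0.595 (Foxc2 and Zic2) to 0.939 (Foxd1 and Zic1).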

How the data were processed

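Nuclei sorted for DAPI from PT lesions and parenchyma at 21 dpi were profiled by 10x single-nucleus RNA-seq, with 1 gene expression library for each of the 2 genotypes. The authors deposited UMI counts per gene and barcode in 4 filtered matrices, made with Cell Ranger 9.0.0 on GRCm39 per the file headers and the methods. Whether intronic reads were counted was not given in the sources used here. The deposited counts summed to 31995274 to 34769874 UMIs for lesions and 62701074 to 62749811 for parenchyma. Region tag features took 20.9% to 60.2% of all counts and were left out. The 52 gene features that share a symbol were kept apart.

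Of 23489 barcodes, 21743 were kept between the 2.5 and 97.5 percentiles of UMIs and genes and with up to 8.74% mitochondrial UMIs. Counts were scaled to 10000 per nucleus, and 3000 variable genes without the members, 30 principal components, 20 neighbours and Leiden resolution 0.25 gave clusters (scanpy 1.11.5 and scikit-learn 1.9.0 in Python 3.11.15, with scipy 1.17.1 for intervals). A cluster was named from marker lists with at least 3 markers up. Splitting the vascular and astrocyte clusters was chosen after seeing the data. No doublet caller was used in the main analysis. Lesional fibroblast-like nuclei were clustered again on 2000 genes. The marker ratio outside fibroblasts used the fibroblast markers without Pdgfra.

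CPM carry exact Poisson intervals, shares exact Clopper-Pearson intervals, and log2 ratios exact conditional binomial intervals with 0.5 added to each sum. All are 95% intervals and cover counting error only. A limit for a count of 0 is 3 counts. Past the fold means at least 1.5-fold with at least 50 UMIs. Thinning to 1000 UMIs left out 210 of the 8284 lesional fibroblast-like, 1 of the 101 parenchymal fibroblast-like and 13 of the 4210 parenchymal excitatory-neuron-like nuclei. The ratio and its interval were tested on simulated data. Nuclei were given to the female or male mouse by Xist or Y-linked UMIs, and those with both or neither were left out. With 1 library per genotype there was no test.

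All members were named, with the 3 genes of each list highest in CPM, those past the fold between libraries, and the 3 genes most like each member. The members and lists were chosen with earlier results of these data known. Alternatives covered filters, resolution, doublets, class assignment, weighting, size factors, mice, depth and state shares.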

Additional observations from a re-analysis of the deposited data

Results flagged for a closer look

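Bnc2 had opposite directions between the libraries in the mice of each sex. Its log2 ratio of CPM in lesional fibroblast-like nuclei, Cxcl12-cKO-labelled library over control-labelled library, was -0.50 (-0.53 to -0.47) in female and 0.04 (0.01 to 0.06) in male nuclei. With 1 mouse of each sex in each library, the difference between the sexes was not tested.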

How the results depend on the processing

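No paired analysis was possible because the labels give 1 library per genotype and no replicate number shared by the groups. The sex-matched ratios below come from single mice told apart by their UMIs within these libraries, with no test. The number of members highest in fibroblast-like nuclei was 8 and ran from 6 to 8 over 11 alternatives. It was 6 with classes from each nucleus's own markers. The number with the same highest state in both libraries was 7 and ran from 7 to 8 over 9. The count past 1.5-fold between libraries, 1, was 2 with nuclei weighted alike, in the female mouse alone and after thinning, and 0 in the male mouse alone and with the state shares of the control-labelled library. The members' median log2 ratio, -0.16, was -0.22 with classes from each nucleus's own markers, -0.11 with members allowed in the clustering, -0.11 with nuclei weighted alike, -0.24 in the female and 0.03 in the male mouse alone, -0.13 after thinning and -0.06 with control state shares. The count past 1.5-fold between regions, 2, was 4 without nuclei holding UMIs of both sexes, in nuclei with no UMI of another class's markers, in the male mouse alone and after thinning, and 1 with own-marker classes and with nuclei weighted alike. Erg was higher under the label Cxcl12-cKO in 13 of 13 alternatives (0.27 to 1.41), and Foxc2 (-0.67 to -0.24), Zic1 (-0.29 to -0.18), Zic2 (-0.50 to -0.20) and Foxd1 (-0.33 to -0.06) were lower in 13 of 13. All alternatives use the same 2 libraries, so these counts of a shared sign are not replicates. The share of all genes that keep their sign in this way is not given here. Bnc2 ran from -0.50 to 0.04, Foxc1 from -0.40 to 0.05, Tbx18 from -0.18 to 0.06 and Zic4 from -0.21 to 0.04. The causes of these shifts were not tested. Own-marker classes left 3929 fibroblast-like nuclei, and 1004 lesional ones had no UMI of another class's markers.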

Other observations

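Erg UMIs were also seen in parenchymal excitatory-neuron-like nuclei, where they gathered in few nuclei. In the largest of these clusters, 56 of 1668 nuclei of the control-labelled library (3.36%, 2.55 to 4.34) and 63 of 1600 of the Cxcl12-cKO-labelled library (3.94%, 3.04 to 5.01) had an Erg UMI. Of those, 14 and 16 nuclei had at least 3 UMIs and together held 86 of 133 and 92 of 148 Erg UMIs, with up to 13 and 11 in a nucleus. A further excitatory-neuron-like cluster had 3 of 454 and 11 of 401 nuclei with an Erg UMI, none with more than 1. In the 30 nuclei with at least 3 UMIs, the 7 endothelial markers summed to 67.0 CPM from 45 UMIs, against 23.3 CPM in 3149 nuclei without Erg and 9020 CPM in endothelial-like nuclei, and the other 8 members summed to 11.9 against 22 CPM. Chosen after their values were seen, Stac was at 89.3 against 7.25 CPM and Kctd8 at 351 against 44.7 CPM in the same nuclei.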
